A study of Mus musculus with 6 samples.

Results

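AW112010, Fam3b, Ecscr and Ano7 are 4 of the 55414 genes counted in sorted Paneth cells (PCs) of mice injected with tumour necrosis factor (TNF) or phosphate-buffered saline (PBS). They were chosen by their measured counts, because those of TNF replicates 2 and 3 differed from those of every PBS library, and because they fall outside the gene programs usually read in this tissue. The choice rests on the TNF against PBS contrast itself, so their levels are given as a description and carry no test. All 4 were found in the count table by their Ensembl identifiers and passed the filter on low counts. TNF replicate 1, which the choice did not use, is given apart throughout.

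The series asked how TNF changes the PC transcriptome. PCs were purified by cell sorting from the small intestine of C57BL/6J mice 15 h after the injection, with 3 PBS and 3 TNF libraries, each from a different mouse. Every mouse, controls included, was a knockout of Ifnar1, which encodes 1 chain of the receptor for type I interferons, so all values describe PCs without that receptor and no wild-type library stands beside them. Dose, age and sex are not given in the labels. Ifnar1 itself was still counted, at 5.18 to 12.7 CPM (read counts scaled to library size) over the 6 libraries, and a count over the whole gene includes exons that the knockout leaves in place, so it checks nothing.

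PCs are the granule-filled secretory cells of the crypt base and release antimicrobial peptides and lysozyme. TNF binds its receptors on epithelial cells and acts largely through the transcription factor NF-kB, and it often acts together with interferon-gamma, whose receptor is separate from Ifnar1. AW112010 is annotated as a long noncoding RNA and is known as a transcript that interferons and bacterial products induce in immune cells. Fam3b encodes a secreted, cytokine-like protein best known from pancreatic islets. Ecscr encodes a single-pass membrane protein first described on endothelial cells, where it takes part in cell migration. Ano7 encodes a member of the anoctamin (TMEM16) family of membrane proteins, which holds calcium-activated channels and lipid scramblases, and it is best known from the prostate.

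Libraries held 12747484 to 17039511 counts with 16483 to 18449 genes detected. Without TMM scaling, a gene at 0 counts could lie as high as 0.176 to 0.235 CPM, depending on the library (3 counts, counting error only). All 10 PC markers examined were counted in every library and summed to 283635 to 652267 CPM. Over log2 CPM of all 13026 tested genes, TNF replicate 1 correlated with each PBS library at 0.937 or more, and with TNF replicates 2 and 3 at only 0.884 and 0.883. Genes, the points of these correlations, are not independent replicates. Of the other cell types, the 8 fibroblast and muscle markers summed to at most 2.87 CPM and the 5 erythroid markers to at most 0.334 CPM in any library.

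Among the members, RefSeq promoter sequences were used only for AW112010 and Ano7, which were not picked by the size of their difference. The 250 bases before each RefSeq start are shown for what they share or lack. No entry was used for Fam3b or Ecscr, so their motif content was not compared. The AW112010 and Ano7 sequences were placed on GRCm39, the build of the counts, by exact matching. Capitals mark the only match to any of the motifs searched.

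AW112010, chr19:11027931-11028180, minus strand: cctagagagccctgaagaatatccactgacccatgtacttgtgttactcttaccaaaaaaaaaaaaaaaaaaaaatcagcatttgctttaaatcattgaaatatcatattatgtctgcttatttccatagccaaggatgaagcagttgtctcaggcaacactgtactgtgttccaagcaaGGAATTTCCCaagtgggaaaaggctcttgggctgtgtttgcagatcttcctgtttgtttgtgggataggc

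Ano7, chr1:93301368-93301617, plus strand: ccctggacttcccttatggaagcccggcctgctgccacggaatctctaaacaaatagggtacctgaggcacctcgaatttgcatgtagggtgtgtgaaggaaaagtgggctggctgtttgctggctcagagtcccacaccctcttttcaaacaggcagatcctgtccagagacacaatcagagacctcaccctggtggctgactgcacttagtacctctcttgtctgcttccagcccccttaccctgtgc

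The capitals in the AW112010 sequence match the NF-kB consensus, on the strand opposite to the gene, and lie 70 to 61 bases before the RefSeq start. Over 32851 mouse promoters of the same length, 7.25% held a match to this consensus on either strand. Neither sequence held TTCNNNGAA (the gamma-interferon activated site, in 7.02% of promoters), the core of the interferon-stimulated response element (GAAA, any 2 bases, GAAA, in 2.98%), TGANTCA (the AP-1 site, in 6.75%) or TATAAA (in 12.4%), each searched on both strands. The window before AW112010 also has a run of 21 A and 39.2% G and C, against 54.4% before Ano7 and a median of 52.4% over all promoters. For AW112010 the RefSeq start lies 5.32 kb inside the outermost GENCODE start, and 1 of its 16 GENCODE transcripts starts within 100 bases of it. These matches describe the letters of 1 window per gene.

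**Figure D1:**
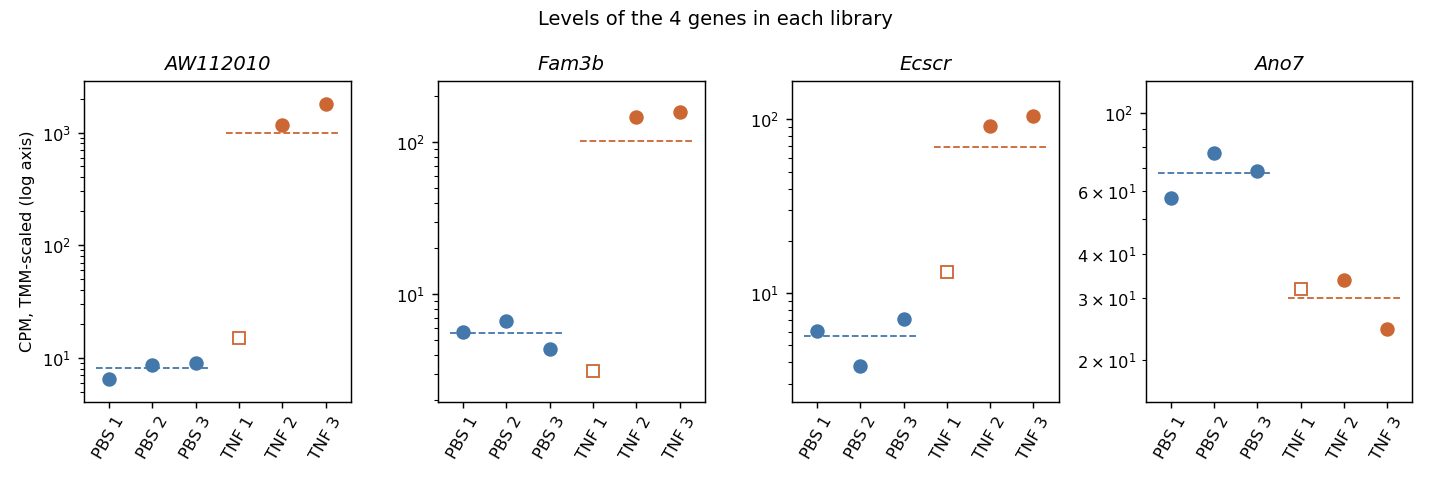
Level of each gene (CPM after TMM scaling, log axis) in each library, with PBS in blue, TNF in orange, TNF replicate 1 as an open square and dashed lines at the group means. AW112010, Fam3b and Ecscr are highest in TNF replicates 2 and 3, with TNF replicate 1 far below these and nearer to PBS, whereas Ano7 is low in all 3 TNF libraries.

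AW112010 (ENSMUSG00000075010, GRCm39 chromosome 19, 11021549 to 11033246, minus strand) had counts of 91, 131 and 123 in PBS replicates 1 to 3, 178 in TNF replicate 1, and 23637 and 22231 in TNF replicates 2 and 3. In CPM after TMM scaling (trimmed mean of M-values), it had 8.12 ± 1.35 CPM in PBS (SD, n = 3), 15.1 CPM in TNF replicate 1, and 1156 and 1790.2 CPM in the other two TNF libraries. TNF replicates 2 and 3 were thus at 142 and 221 times the PBS mean. TNF replicate 1 lay above all 3 PBS libraries, at 1.86 times their mean, and also without TMM scaling (12.1 CPM against 6.29 to 9.68 CPM). The fitted log2 fold change over all 6 libraries was 6.93 (SE 1.35), and 7.52 (SE 0.33) without TNF replicate 1. By level, AW112010 ranked 7771 of 13026 tested genes in PBS and 28 of 13026 in TNF replicates 2 and 3.

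Fam3b (ENSMUSG00000022938, chromosome 16, 97271940 to 97316016, minus strand) had counts of 78, 100 and 59 in PBS, 37 in TNF replicate 1, and 2977 and 1963 in TNF replicates 2 and 3. Its level was 5.55 ± 1.17 CPM in PBS (SD, n = 3), and 146 and 158 CPM in TNF replicates 2 and 3, which are 26.3 and 28.5 times the PBS mean. TNF replicate 1 went the other way, since its 3.14 CPM lay below all 3 PBS libraries (4.33 to 6.67 CPM). The same held without TMM scaling, at 2.51 CPM against 4.63 to 7.39 CPM. The fitted log2 fold change was 4.20 (SE 1.04) over all libraries and 4.79 (SE 0.23) without TNF replicate 1.

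Ecscr (ENSMUSG00000073599, chromosome 18, 35846136 to 35855434, minus strand) had counts of 84, 57 and 97 in PBS, 157 in TNF replicate 1, and 1870 and 1287 in TNF replicates 2 and 3. This gave 5.66 ± 1.70 CPM in PBS (SD, n = 3), 13.3 CPM in TNF replicate 1, and 91.5 and 104 CPM in TNF replicates 2 and 3, or 16.2 and 18.3 times the PBS mean. In TNF replicate 1 the gene lay above every PBS library, at 2.36 times their mean, with (13.3 against 3.80 to 7.13 CPM) or without TMM scaling (10.6 against 4.21 to 7.61 CPM). The fitted log2 fold change was 3.62 (SE 0.66), and 4.13 (SE 0.26) without TNF replicate 1.

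Ano7 (ENSMUSG00000034107, chromosome 1, 93301652 to 93332025, plus strand) was the member that was lower after TNF. It had counts of 797, 1151 and 933 in PBS, 375 in TNF replicate 1, and 689 and 304 in TNF replicates 2 and 3. In CPM this was 57.5, 76.8 and 68.6 in PBS against 31.9 in TNF replicate 1, 33.7 in replicate 2 and 24.5 in replicate 3. The groups did not overlap, as for 7.82% of tested genes in this direction, and TNF replicate 1 lay between the other TNF libraries. The choice had fixed the place of TNF replicates 2 and 3. The PBS mean was 2.12 times the level in TNF replicate 1 and 2.32 times the mean of TNF replicates 2 and 3. The fitted log2 fold change was -1.17 (SE 0.22), and -1.19 (SE 0.22) without TNF replicate 1.

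The members differed widely in the size of the step that chose them. The lower of TNF replicates 2 and 3 was 128 times the highest PBS library for AW112010, 21.8 times for Fam3b and 12.8 times for Ecscr, while for Ano7 the lowest PBS library was 1.71 times the higher of the TNF libraries. Ordered by this gap on the log2 CPM scale, AW112010 was 2nd, Fam3b 10th and Ecscr 17th of the 13026 tested genes in the upward direction. Ano7 was only 629th in the downward direction, so the word sharp describes the other members better than Ano7. As background, TNF replicates 2 and 3 both lay above every PBS library for 24.1% of tested genes and both below for 22% of them, and the choice fixed where the 4 members fall.

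The spread within groups differed too. Over the PBS libraries the highest level was 1.38 times the lowest for AW112010, 1.54 times for Fam3b, 1.87 times for Ecscr and 1.34 times for Ano7. Between TNF replicates 2 and 3 the ratio was 0.921 for Fam3b and 0.883 for Ecscr, both close to even, but 0.646 for AW112010 and 1.38 for Ano7. Per kb of annotated exon, which allows levels of different genes to be compared, the mean in PBS was 17.0 CPM per kb for Ano7, 4.08 for AW112010, 3.18 for Ecscr and 2.72 for Fam3b. The PBS ranges were 2.13 to 3.27 CPM per kb for Fam3b, 2.13 to 4.0 for Ecscr and 3.30 to 4.54 for AW112010, so Fam3b and Ecscr, and Ecscr and AW112010, overlapped, while Ano7 stood apart at 14.4 to 19.3. In TNF replicates 2 and 3 the order was AW112010 (581 and 899.6 CPM per kb), Fam3b (71.5 and 77.6), Ecscr (51.3 and 58.2) and Ano7 (8.46 and 6.14), with no overlap between neighbours in that order. Ano7 thus passed from the first place to the last. In TNF replicate 1 the levels were 8.0 CPM per kb for Ano7, 7.60 for AW112010, 7.49 for Ecscr and 1.54 for Fam3b.

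**Figure D2:**
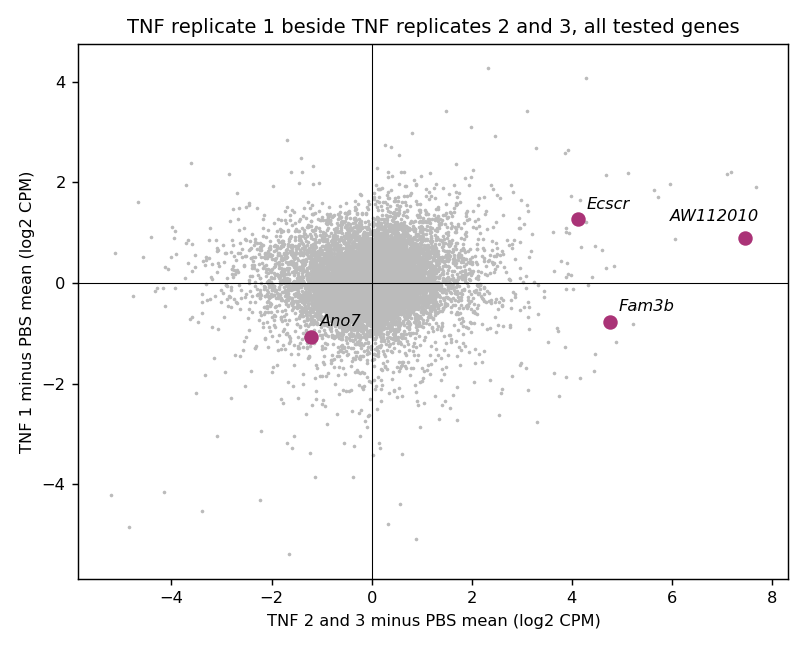
Each grey point is 1 of 13026 tested genes, with the difference of TNF replicates 2 and 3 from the PBS mean on the x axis and that of TNF replicate 1 on the y axis (log2 CPM, prior count 2). AW112010 lies at 7.46 and 0.90, Fam3b at 4.76 and -0.77, Ecscr at 4.12 and 1.26, and Ano7 at -1.22 and -1.07.

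TNF replicate 1 gives the one look at these genes in a TNF library that did not enter the choice, and with 1 library no test was possible. Its level was above every PBS library for AW112010 and Ecscr, as it was for 28.2% of tested genes, and below every PBS library for Fam3b and Ano7, as it was for 26.6%. It shared the direction of TNF replicates 2 and 3 for 3 of the 4 members. Of the tested genes with TNF replicates 2 and 3 above every PBS library, 37.7% had TNF replicate 1 above as well and 26.5% had it below, the pattern of Fam3b. Of those with TNF replicates 2 and 3 below, 35.6% had TNF replicate 1 below as well, the pattern of Ano7. The plot of TNF replicate 1 beside TNF replicates 2 and 3 shows that Ano7 alone of the members had a difference of about the same size on both axes.

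Neighbouring genes were examined next, to see whether the members moved alone. A gene passed 5% where the edgeR p, adjusted by Benjamini and Hochberg over all genes tested, was under 0.05. With all 6 libraries 0 of 13026 genes (0%) passed 5% with edgeR, with 1596 (12.3%) at an unadjusted p under 0.05. For the same libraries limma-voom also gave 0, while DESeq2 gave 223, of which 186 were higher in TNF (1.43% of tested genes). Without TNF replicate 1, 9.1% of 13660 genes passed upward and 5.4% downward. A neighbour is a gene that overlaps a member, or the nearest gene on either side with at least 10 counts in some library.

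**Figure D3:**
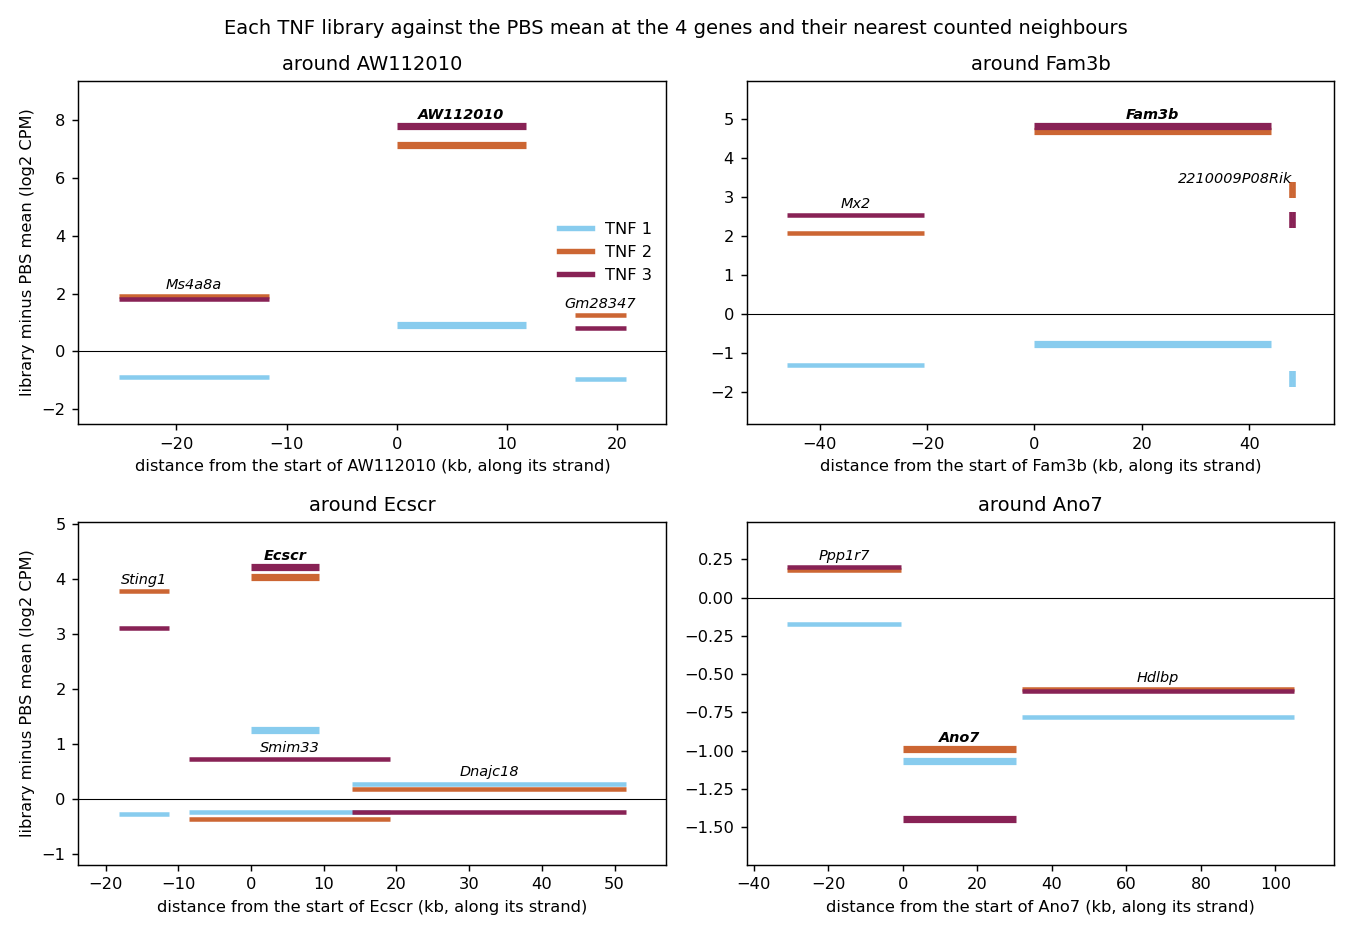
Each bar spans a gene by its distance in kb from the start of the member in bold, along the strand of that member, and its height is the difference of 1 TNF library from the PBS mean (log2 CPM, prior count 2). Sting1 and Ms4a8a are raised beside Ecscr and AW112010 in TNF replicates 2 and 3, while the neighbours of Ano7 stay within 0.78 of the PBS mean.

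Sting1, the adaptor of cytosolic DNA sensing, lies 11.3 kb from Ecscr on the same strand. Its level was 11.1, 7.68 and 6.17 CPM in PBS, 6.63 CPM in TNF replicate 1, and 112 and 70.9 CPM in TNF replicates 2 and 3. Unlike Ecscr, Sting1 lay within the PBS range in TNF replicate 1. In edgeR the log2 fold change of Sting1 was 2.93 (SE 0.77, adjusted p 0.274), and 3.48 (SE 0.28, adjusted p 2.73e-05) without TNF replicate 1, where it rose past 5%, against a range of 8.6e-18 to 0.897 over the alternatives tried. Without TNF replicate 2 the log2 fold change of Sting1 was 2.18. On the other side, Dnajc18, which encodes a J-domain co-chaperone, was at 10.7 to 15.5 CPM in all 6 libraries (log2 fold change 0.09, SE 0.24, adjusted p 0.901). Smim33, a small membrane protein gene on the opposite strand, spans all of Ecscr and shares 62 exonic bases with it. The use of strand in counting is not given in the sources used here, so reads from these shared bases cannot be assigned with certainty. Smim33 had 37.7 and 80.8 CPM in TNF replicates 2 and 3 against 39.1 to 55.1 CPM in PBS (log2 fold change 0.11, SE 0.31, adjusted p 0.910), a pattern unlike that of Ecscr.

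Ms4a8a, of the MS4A family of membrane-spanning proteins, lies 11.6 kb from AW112010 on the same strand. It had 13.4, 28.2 and 28.4 CPM in PBS, 11.9 CPM in TNF replicate 1, and 84.1 and 78.9 CPM in TNF replicates 2 and 3. In edgeR its log2 fold change came to 1.32 (SE 0.60, adjusted p 0.419), and 1.82 (SE 0.28, adjusted p 0.00175) without TNF replicate 1, where it rose past 5%, against a range of 3.03e-04 to 0.920 over the alternatives. That step is far smaller than that of AW112010. Gm28347, a noncoding gene 4.46 kb away on the other side, reached at most 10 counts and was not tested.

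Fam3b has the unconfirmed transcript 2210009P08Rik 3.79 kb past its end on the same strand. It had 10, 2 and 3 counts in PBS, 0 in TNF replicate 1, and 78 and 27 in TNF replicates 2 and 3. It had too few counts for the fit over all 6 libraries, and without TNF replicate 1 it rose past 5% (log2 fold change 3.07, SE 0.84, edgeR adjusted p 0.0322, against a range of 0.0322 to 0.920). Mx2, an interferon-induced GTPase gene 20.5 kb away on the opposite strand, had at most 4 counts in PBS, 0 in TNF replicate 1, and 27 and 23 in TNF replicates 2 and 3 (log2 fold change 2.87 without TNF replicate 1, SE 0.97, adjusted p 0.0716, with a range of 0.0716 to 0.763). The pseudogene Gm9242 and the ribosomal RNA gene Gm54801, both within Fam3b and sharing no exonic base with it, had at most 2 counts and 0 counts.

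Ano7 starts 0.441 kb after Ppp1r7, a regulatory subunit gene of protein phosphatase 1, on the same strand. Ppp1r7 differed little between the groups, with a PBS range of 19.5 to 24.4 CPM and a TNF range of 18.9 to 24.3 CPM (edgeR log2 fold change 0.08, SE 0.22, adjusted p 0.911). Hdlbp, which encodes the RNA-binding protein vigilin, ends 1.63 kb from the end of Ano7 on the opposite strand. It had 903, 556 and 502 CPM in PBS against 369, 417 and 414 CPM in TNF, so the groups did not overlap, as for 7.82% of tested genes in this direction. The difference did not pass 5% (log2 fold change -0.71, SE 0.29, adjusted p 0.383), and it was smaller than that of Ano7.

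**Figure D4:**
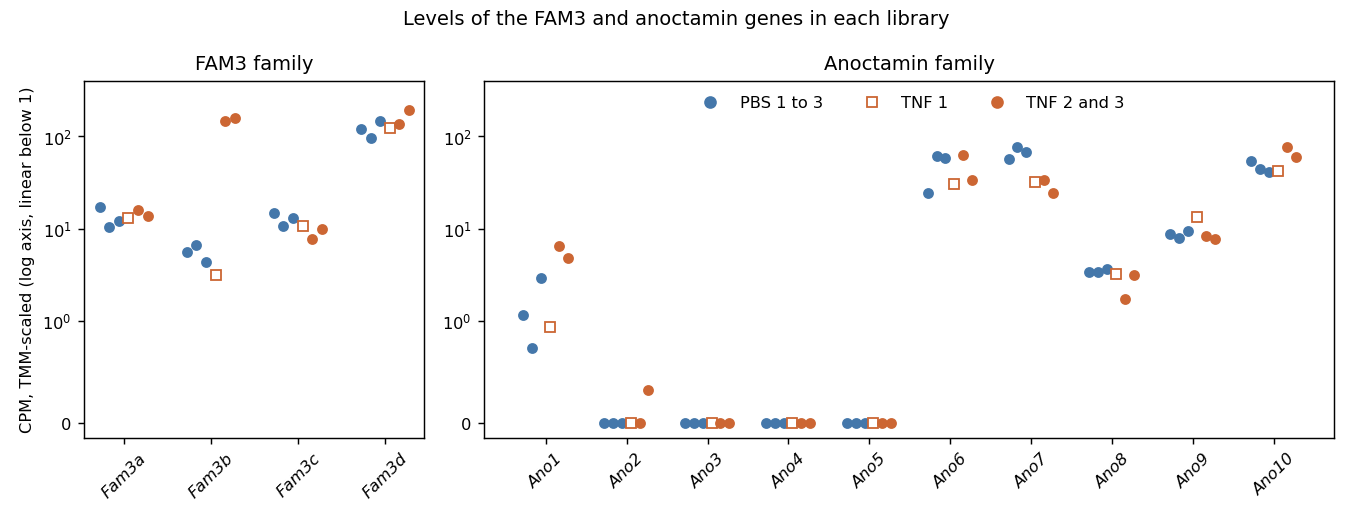
Level (CPM after TMM scaling, log axis, linear below 1) of every FAM3 and anoctamin gene in each library, with PBS in blue, TNF in orange and TNF replicate 1 as an open square. In CPM, Fam3b moves from the lowest FAM3 level in PBS to about the level of Fam3d in TNF replicates 2 and 3. Per kb of exon, its PBS range (2.13 to 3.27 CPM per kb) overlaps those of Fam3a (1.85 to 3.03) and Fam3c (1.72 to 2.33).

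The families of Fam3b and Ano7 were then read for relatives that did the same. Of the FAM3 family, which encodes secreted cytokine-like proteins, Fam3d had 122, 97.4 and 146 CPM in PBS, 125 CPM in TNF replicate 1, and 137 and 195 CPM in TNF replicates 2 and 3 (edgeR log2 fold change 0.33, SE 0.26, adjusted p 0.637). Fam3a had 10.5 to 17.2 CPM in PBS and 13.2 to 15.9 CPM in TNF (log2 fold change 0.11, adjusted p 0.886). Fam3c had 10.8 to 14.6 CPM in PBS and 7.63 to 10.8 CPM in TNF (-0.45, adjusted p 0.509). None of these 3 relatives passed 5% with edgeR, limma-voom or DESeq2, or without TNF replicate 1, and 0 had an unadjusted p under 0.05 with edgeR over all libraries.

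Of the 9 other anoctamins, Ano3, Ano4 and Ano5 had 0 counts in every library, Ano2 had 4 counts in TNF replicate 3 alone, and 5 were tested. Ano10 had 41.2 to 54.8 CPM in PBS against 41.9, 76.2 and 60.5 CPM in TNF (log2 fold change 0.35, edgeR adjusted p 0.601), and Ano6, a calcium-dependent lipid scramblase, had 24.1 to 61.7 and 30.8 to 63.0 CPM (-0.17, adjusted p 0.884). Ano9 had 7.88 to 9.40 CPM in PBS and 7.65 to 13.5 CPM in TNF (0.18, adjusted p 0.841), and Ano8 3.34 to 3.60 and 1.71 to 3.23 CPM (-0.36, adjusted p 0.777). The chloride channel gene Ano1 had 0.734 to 2.94 CPM in PBS, 0.935 CPM in TNF replicate 1, and 6.51 and 4.75 CPM in TNF replicates 2 and 3 (log2 fold change 1.35, adjusted p 0.499). For Ano1 this became 2.06 without PBS replicate 3, 0.79 without TNF replicate 2, and 1.83 without TNF replicate 1 (adjusted p 0.0575, with a range of 0.0575 to 0.920 over the alternatives). None of the 5 passed 5% with edgeR, limma-voom or DESeq2, and 0 had an unadjusted p under 0.05 with edgeR over all libraries. Among the 6 anoctamins past the low-count filter, TNF replicates 2 and 3 both lay above the PBS range for Ano1 and Ano10. Both lay below it for Ano7, where the choice had fixed this, and for Ano8. Over all tested genes the shares were 24.1% above and 22% below.

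Because interferon-gamma induces AW112010, the genes of that pathway were counted beside it. Of 43 genes listed, 31 were tested with all libraries and 27 of them had a positive log2 fold change, with a median of 0.94 against 0.00 over all genes tested. With edgeR 0 passed 5% (15 at an unadjusted p under 0.05), with limma-voom 0 and with DESeq2 8, all upward. Over all tested genes, 12.3% had such an unadjusted p with edgeR and 1.43% passed upward with DESeq2. Without TNF replicate 1, 23 of 35 tested genes rose past 5% and 1 (Ciita, named after its value was seen) fell past it. In that fit 9.1% of all tested genes passed upward and 5.4% downward. The median of the pathway was 1.39, against -0.01 over all genes. The receptor gene Ifngr2 had 23.6 to 32.2 CPM in PBS, 37.8 CPM in TNF replicate 1, and 162 and 148 CPM in TNF replicates 2 and 3 (log2 fold change 2.00, SE 0.47, edgeR adjusted p 0.270). Without TNF replicate 1 it rose past 5% (2.44, adjusted p 4.11e-05, with a range of 1.41e-09 to 0.897). Ifngr1, for the other receptor chain, had 21.9 to 30.2 CPM in PBS, 42.2 CPM in TNF replicate 1, and 64.7 and 64.2 CPM in the other TNF libraries (1.07, adjusted p 0.270), and it also rose past 5% without TNF replicate 1 (1.26, adjusted p 0.00209, with a range of 0.00209 to 0.897).

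Downstream of the receptor, the genes differed widely. Ido1, which encodes a tryptophan-degrading enzyme and was named after its values were seen, had counts of 8, 0 and 0 in PBS, 11 in TNF replicate 1, and 757 and 357 in TNF replicates 2 and 3. Its edgeR log2 fold change of 6.82 (SE 1.41, adjusted p 0.270) was within its SE of the 6.93 of AW112010, at a far lower level. The guanylate-binding protein gene Gbp5 and the chemokine gene Cxcl9, named in the same way, had at most 1 and 4 counts in PBS, 0 and 1 in TNF replicate 1, and 88 and 36 or 90 and 18 in TNF replicates 2 and 3. Irf1, a transcription factor of the pathway, had 34.0 to 38.9 CPM in PBS and 31.8 to 34.7 CPM in TNF (log2 fold change -0.15, edgeR adjusted p 0.780), and the kinase gene Jak1 109 to 125 and 105 to 166 CPM (0.24, adjusted p 0.713). B2m, the light chain of MHC class I, had 82.4 to 119 CPM in PBS, 131 CPM in TNF replicate 1, and 241 and 272 CPM in TNF replicates 2 and 3 (1.13, adjusted p 0.278). Tapbp, which loads peptides on MHC class I, had 59.6 to 65.2 CPM in PBS, 57.2 CPM in TNF replicate 1, and 279 and 180 CPM in TNF replicates 2 and 3 (1.46, adjusted p 0.297). Both B2m and Tapbp rose past 5% without TNF replicate 1 (adjusted p 0.00200 and 3.55e-04, with ranges of 0.00200 to 0.897 and 7.34e-05 to 0.897).

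Ecscr and AW112010 are best known from cells other than PCs, so markers of those cells were read in the same libraries. Of 22 endothelial markers, 10 had 0 counts in all 6 libraries, among them Cdh5 and Kdr, and Pecam1 had 8 counts in TNF replicate 2 and none elsewhere. Their sum was 39.96 to 66.3 CPM in PBS and 26.2 to 45.2 CPM in TNF, most of it from Prox1 (27.8 to 41.7 and 17.3 to 29.5 CPM) and Esam (7.07 to 10.6 and 5.35 to 5.80 CPM). Tek had 0.505 to 5.88 CPM in PBS and 1.27 to 2.15 CPM in TNF. No endothelial marker passed 5% (0 of 6 tested with edgeR, limma-voom or DESeq2, 0 at an unadjusted p under 0.05 with edgeR), and their part in the level of Ecscr was not tested. Plvap, an endothelial marker named after its values were seen, had 0.505 to 3.38 CPM in PBS, 0.425 CPM in TNF replicate 1, and 3.42 and 2.74 CPM in TNF replicates 2 and 3. Of 23 immune markers, 7 had 0 counts in all libraries (among them Cd3d, Cd3g, Cd4, Cd8a, Gzmb and Nkg7). With these included, 11 had at most 3 counts in every library. The others had more in some library, among them Ptprc, named after its values were seen. The sum of all 23 was 26.7 to 60.7 CPM in PBS and 48.6 to 49.6 CPM in TNF. In bulk samples, fewer cells of a type and less RNA per cell cannot be told apart.

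Markers of other epithelial cells moved with the groups in part. The 11 enterocyte markers summed to 483 to 532 CPM in PBS and 272 to 385 CPM in TNF, lower in all 3 TNF libraries as Ano7 was, and their part in its level was not tested. The 9 goblet cell markers summed to 12460.2 to 13749 CPM in PBS and to 15898, 7990.5 and 12154 CPM in TNF replicates 1 to 3.

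Lastly, the genes with the pattern most like each member were found by Pearson's r of log2 CPM over the 6 libraries, among 9161 other genes with a mean of at least 5 CPM. These r values describe 6 points that share their libraries and are given with no test. Closest to AW112010 were Cr1l, a complement regulator (0.999), the antimicrobial lectin gene Reg3b (0.998), the purine salvage gene Aprt (0.997), Acadl of mitochondrial fatty acid oxidation (0.996) and the actin regulator Arpc3 (0.995). Their steps were of very different size, from Arpc3 (42.1 to 44.2 CPM in PBS against 134 and 143 CPM in TNF replicates 2 and 3) to Reg3b (422 to 641 against 12028 and 19161 CPM). All 5 had TNF replicate 1 above every PBS library, as AW112010 had, a likeness that the choice by r over these libraries favours.

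Closest to Fam3b were Cpne8 (0.999), the guanylate-binding protein gene Gbp2 (0.998), the pore-forming gasdermin gene Gsdmd, Gxylt1 and H6pd (each 0.997). Gbp2 had 0.735 to 1.47 CPM in PBS, 0.510 CPM in TNF replicate 1, and 48.7 and 37.7 CPM in TNF replicates 2 and 3, and Gsdmd 7.07 to 8.28, then 5.78, then 68.8 and 66.4 CPM. All 5 had TNF replicate 1 below every PBS library, as Fam3b had, which the choice by r again favours. Closest to Ecscr were, among others, the proteasome subunit gene Psma1 (0.998), and Perp, Ppp2r2d and the tetraspanin gene Cd9 (each 0.997). Cd9 had 94.0 to 114 CPM in PBS, 170.1 CPM in TNF replicate 1, and 441 and 541 CPM in TNF replicates 2 and 3.

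Ano7 had fewer close matches. Only 23 genes had an r over 0.95 with it, against 337 for AW112010, 317 for Fam3b and 284 for Ecscr. The number for a typical gene was not taken, and the libraries used in the choice also enter r. These numbers are therefore not read as a trait of the members. Closest were Myo6, an actin-based motor (0.987), Lmf1, which matures lipases (0.984), Neurl4 (0.983), and the zinc finger genes Zscan29 (0.980) and Zfp407 (0.977). Myo6 had 217 to 251 CPM in PBS and 175 to 187 CPM in TNF. Neurl4 had 14.4 to 15.4 and 6.76 to 8.41 CPM. The groups did not overlap for either, as for 7.82% of tested genes in this direction, and the choice by r with Ano7 favours this. Among the members, AW112010 had an r of 0.973 with Fam3b and 0.976 with Ecscr, Fam3b and Ecscr had 0.914, and Ano7 had -0.787, -0.652 and -0.873 with AW112010, Fam3b and Ecscr, again over 6 libraries that the choice had used in part.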

How the data were processed

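Paneth cells were sorted from 6 mice and RNA was sequenced with single-end reads. Groups and replicate numbers came from the sample labels, and no label pairs mice across groups. The deposited values are raw counts per gene. The submitters' processing notes list FastQC, Trimmomatic 0.39, STAR 2.7.10a, DESeq2 and build mm39 (GRCm39). For counting, the sources used here give no tool, strand setting or treatment of shared reads. Symbols and positions came from GENCODE for GRCm39 (54749 of 55414 identifiers matched), and promoters from RefSeq.

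Genes kept by filterByExpr (minimum count 10, total 15) numbered 13026. They were scaled with TMM and tested with edgeR 4.0.16 quasi-likelihood (R 4.3.3, group only, two-sided). SEs were derived from the log2 fold change and its F statistic. Scripts were tested on simulated data. Libraries of a group differed beyond sampling noise (chi-square per degree of freedom 27.7 or more).

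The 4 genes and all lists were chosen with earlier results of these data known. Named genes are the members, overlapping and nearest counted neighbours, FAM3 and anoctamin relatives, Ifngr1, Ifngr2, Irf1, Pecam1, Cdh5, the 3 most abundant interferon-gamma and endothelial genes, and the 5 closest patterns per member. Some genes that the rule takes in are not reported here, single genes named after their values were seen are marked so, and marker genes listed for being at 0 counts were named for that. Alternatives were other scalings, filters and thresholds, DESeq2 1.42.0, limma-voom (limma 3.58.1), a replicate block, prior count 2 and leaving out each library.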

Additional observations from a re-analysis of the deposited data

How the results depend on the processing

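The log2 fold changes of the 4 members kept their direction and moved by less than the spread between replicates under all 64 alternative values. For the 3 raised genes that spread takes in TNF replicate 1, which makes it a wide bound that few changes could pass. Leaving out 1 library gave 6.18 to 7.52 for AW112010, 3.75 to 4.79 for Fam3b, 3.22 to 4.13 for Ecscr and -1.29 to -1.04 for Ano7, where the 3 raised genes were highest without TNF replicate 1 and lowest without TNF replicate 3. The largest departure otherwise was limma-voom for AW112010 (5.22) and Fam3b (2.94), followed by the replicate block (5.85 and 3.38), and the cause was not tested.

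The count of 0 genes past 5% became 690 with no low-count filter and 223 with DESeq2, and ranged from 0 to 1980 when 1 library was left out, the highest without TNF replicate 1. For the interferon-gamma pathway it became 16 and 8, and ranged from 0 to 24, again highest without TNF replicate 1. Counts stayed 0 for FAM3, anoctamin and endothelial genes. With a replicate block 0 genes passed 5% (1395 at an unadjusted p under 0.05, edgeR). Deviations of same-numbered libraries correlated at -0.0128, -0.0748 and 0.0311, so no pairing by number was seen. TNF replicate 1 stood far from the other TNF libraries, which could hide a smaller shared effect, so pairing could not be decided.

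Signs of small differences turned under library size alone for Smim33 (-0.02), Dnajc18 (-0.02) and Ppp1r7 (-0.0018), and when 1 library was left out for Smim33 (-0.31 to 0.28), Ppp1r7 (-0.01 to 0.20), Fam3a (-0.03 to 0.35), Ano6 (-0.60 to 0.05) and Ano9 (-0.10 to 0.33). Each had an edgeR adjusted p of 0.860 or more there.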
